A study of Mus musculus with 12 samples.

Results

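The genes described here were low in the liver of wild-type mice (WT) on a high-fat diet (HFD). In mice without NLRP6 (KO) on the same diet they were higher by group mean. How much of the normal-diet level was kept there ranged from a small part to all of it. These genes are 125 of the 42554 rows of a count table of liver RNA. They were chosen from measured values: an annotated gene with a mean of 1 to 1000 CPM (read counts scaled to the total of the library) over the 12 libraries was taken when its WT HFD mean was at most 0.4 of its mean in WT on a normal diet (ND), its KO HFD mean was at least 2 times its WT HFD mean, and the ratio of KO HFD to KO ND lay above 0.25 and below 1.5. For these ratios 0.1 CPM was added to each group mean, and IDs within 200 ID numbers of a gene that had counts in every WT library and none in KO were left out. All 4 groups entered the choice, so the diet ratios of both genotypes and the genotype ratio on HFD are given as a description of the members and not as findings.

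All samples were liver. WT and KO mice ate a normal diet up to 8 weeks of age, after which the HFD groups had a high-fat diet for 12 weeks and the ND groups stayed on the normal diet, giving 4 groups of 3 libraries. The strain, sex and number of animals, and the cells in which the gene was deleted, are not given in the sources used here beyond a statement that NLRP6 was lost in hepatocytes. Total counts ran from 13339879 to 15933886 per library, and replicate 1 of KO HFD lay closer to WT HFD than replicates 2 and 3 did in most results below. Exactly 1 gene had at least 5 counts in every WT library and 0 in every KO library, but none of the IDs in the table was paired with a symbol in the tables used here, so neither Nlrp6 itself nor liver marker genes could be looked up.

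NLRP6 is a NOD-like receptor that can assemble an inflammasome with the adaptor ASC and caspase-1, and it is best known from the intestinal epithelium. The liver takes up dietary fat and stores the excess in lipid droplets of hepatocytes, and a prolonged high-fat diet changes the expression of many hepatic genes in both directions. The study asked what the loss of NLRP6 does to lipid storage in hepatocytes. In whole liver, fewer cells of a type and less RNA per cell cannot be told apart.

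Among 11702 annotated genes in the CPM range, 1232 had a WT HFD mean at or under 0.4 of the WT ND mean, and 176 of these were at least 2 times higher in KO HFD than in WT HFD. Of the 176, 125 met the bounds on the diet ratio in KO, 31 had a KO HFD to ND ratio of 1.5 or above, and 20 had one of 0.25 or below. The other 1107 WT-repressed genes serve as the comparison set. The members were mostly of low abundance. Their mean over the 12 libraries had a median of 3.12 CPM and ran from 1.01 to 136.8 CPM, with 83 members under 5 CPM and 5 members at 50 CPM or more. The comparison set had a median of 7.49 CPM.

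Many members sat close to a bound of the rule. The lowest ratio of KO HFD to WT HFD inside the rule was 2.00002 and the highest just outside it was 1.996; 43 members were under 2.2, and 55 further WT-repressed genes that met the other bounds had a ratio from 1.8 to under 2. The nearest values to the WT bound were 0.397 inside and 0.408 outside. In KO, the nearest values were 0.259 inside and 0.241 outside the lower bound, and 1.40 inside and 1.504 outside the upper bound. The plot of both diet ratios shows no gap between the members and the genes around them.

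**Figure D1:**
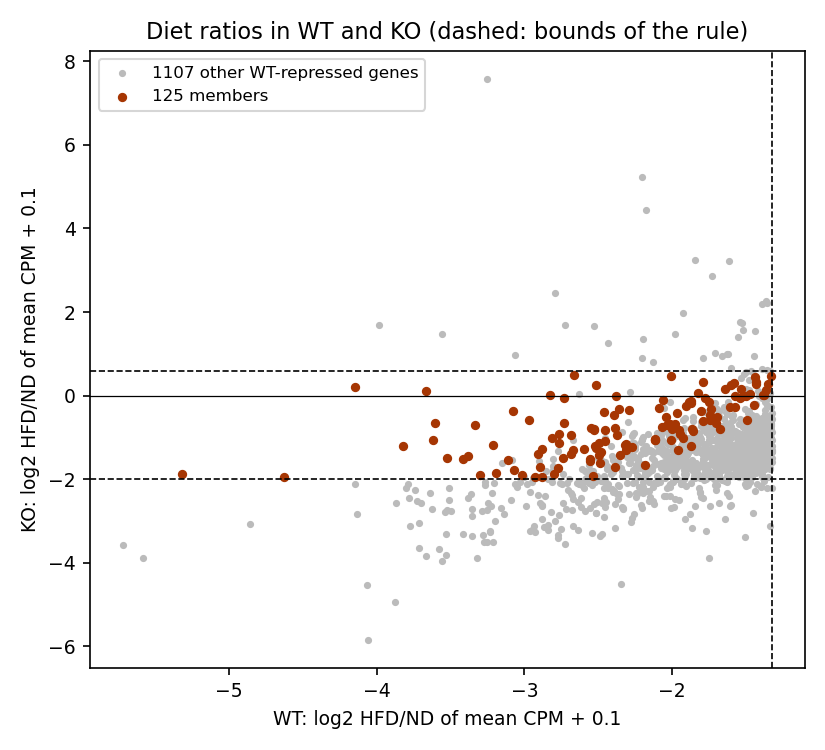
Each point is a WT-repressed gene, with the log2 ratio of HFD to ND (group mean CPM + 0.1) in WT on the x axis and in KO on the y axis. The 125 members (dark) lie between the dashed bounds in KO and adjoin the 1107 other WT-repressed genes (grey) without a gap.

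Summed over all members, the level was steady in 3 of the groups and spread widely in KO HFD. The members together took 1929, 1934 and 1950 CPM in the WT ND libraries and 382, 444 and 441 CPM in the WT HFD libraries. In KO ND they took 1717, 1607 and 1906 CPM. The KO HFD libraries gave 578 CPM (replicate 1), 1419 CPM (replicate 2) and 1147 CPM (replicate 3). On HFD the group means were 1048 ± 429 CPM for KO and 422 ± 35.0 CPM for WT, and on ND they were 1743 ± 151 CPM for KO and 1938 ± 10.9 CPM for WT (SD, n = 3 each). All 3 KO HFD libraries were above all 3 WT HFD libraries and below all KO ND libraries, but replicate 1 was nearer to WT HFD than to the other KO HFD libraries.

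In WT, where the rule required a fall, the ratio of HFD to ND had a median of 0.202 and ran from 0.0251 to 0.397. The edgeR quasi-likelihood test (Benjamini-Hochberg adjusted p under 0.05 over 13843 genes, the rule for every call below) called 114 members lower on HFD in WT, against 21.5% of all genes tested (41.0% in either direction). WT ND and WT HFD values did not overlap in 120 members, against 41.7% of all genes tested. All 125 members passed the low-count filter. The median fitted log2 fold change was -2.15 for the members and -0.03 for all genes tested. One member had no count in any WT HFD library and 166 counts over the WT ND libraries, at least 18.4-fold more than a floor of 3 counts per library. In KO HFD that member had 12 counts in all, so its kept level is close to what can be counted.

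In KO the members fell less, and the size of the remaining fall divided them. The ratio of HFD to ND in KO had a median of 0.584, with 50 members under 0.5, 37 from 0.5 to under 0.8, 33 from 0.8 to under 1.25 and 5 from 1.25 upwards. The test called 38 members lower on HFD in KO (22.1% of all genes tested were) and 1 higher (22.6% of all genes tested; 44.8% in either direction). The 1 higher member measured 2.38, 2.87 and 2.08 CPM in KO ND and 2.85, 3.27 and 3.94 CPM in KO HFD, beside 2.97, 3.78 and 3.41 CPM in WT ND. KO ND values lay above all KO HFD values in 60 members, against 35.9% of all genes tested, and below all of them in none. The rule held the KO ratio below 1.5, and the share of all genes with KO ND below all KO HFD values was not counted. The 38 members called lower in both genotypes had a median KO ratio of 0.375 beside a median WT ratio of 0.153. The 86 members not called in KO had a median KO ratio of 0.752 beside a median WT ratio of 0.251. The median fitted log2 fold change on HFD in KO was -0.61, against 0.01 for all genes tested.

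How much of the WT fall was missing in KO was expressed on a scale on which the WT HFD mean is 0% and the WT ND mean is 100%. On this scale the KO HFD means of the members had a median of 41.2%, from 7.45% to 143%. The position was under 25% in 26 members, 25% to under 50% in 51, 50% to under 75% in 33 and 75% or more in 15, of which 4 were at 100% or above. By group mean, the members thus ranged from genes that nearly followed WT to genes at or above the WT ND mean. In the 4 at 100% or above, KO HFD replicate 1 stood at only 5.93%, -29.2%, 49.7% and -14.8%. Replicates 2 and 3 were above 100% in each of the 4, so their means combine unlike libraries.

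**Figure D2:**
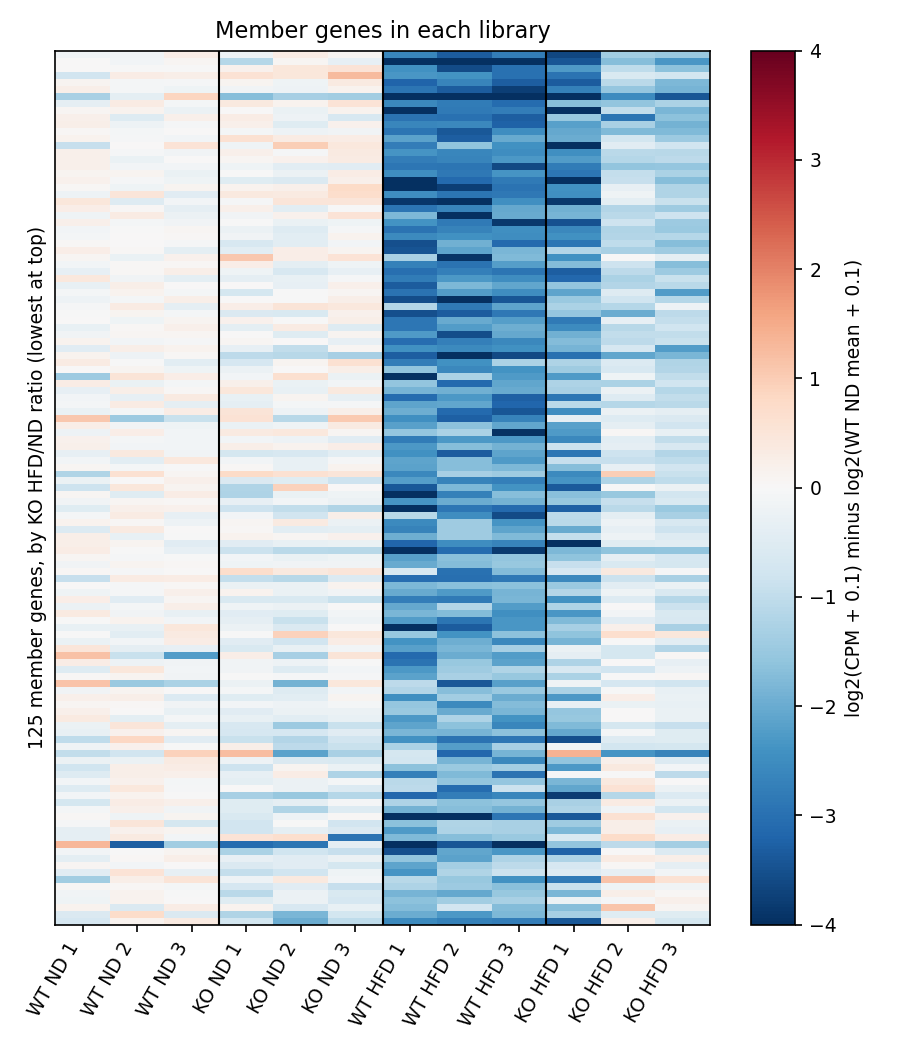
Rows are the 125 members, ordered by the KO ratio of HFD to ND, and columns are the 12 libraries. Colour is log2(CPM + 0.1) minus log2(WT ND mean + 0.1). The WT HFD columns are mostly blue, KO HFD replicate 1 resembles them in many rows, and KO HFD replicates 2 and 3 are paler.

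The kept level was uneven across the KO HFD libraries. On the WT scale the median member of KO HFD stood at 7.05% (replicate 1), 63.5% (replicate 2) and 44.3% (replicate 3), while the WT HFD libraries stood at -1.65%, 0.133% and 1.10%. The position of 50% was reached by 7.2%, 59.2% and 41.6% of members in these libraries. Replicate 1 was the lowest KO HFD library in 108 members (86.4%), and the order replicate 2 over 3 over 1 held in 84 (67.2%). The comparison set showed the same library at the bottom in 74.9% of its genes, and all 11702 annotated genes in 53.3%. The same order held in 58.4% of the comparison set and 40.4% of all 11702 annotated genes. In the comparison set the same libraries stood at -3.95%, 20.6% and 10.5%. The part of this spread between libraries in the members' result was not tested.

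**Figure D3:**
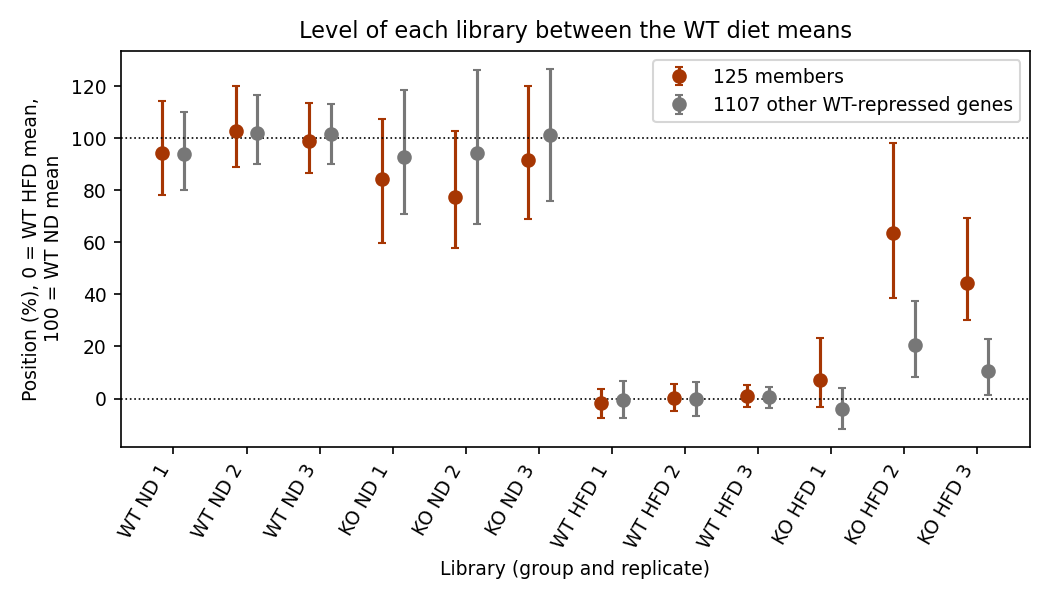
Median position of the genes in each library on a scale from the WT HFD mean (0%) to the WT ND mean (100%), with bars from the lower to the upper quartile over genes. KO HFD replicates 2 and 3 are raised in the members (63.5% and 44.3%) and less so in the other WT-repressed genes (20.6% and 10.5%), and replicate 1 stays near 0% in both.

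Replicates 2 and 3 of KO HFD were both above every WT HFD library in 122 members, and replicate 1 was in 63. The rule favours high KO HFD values, and the share over all genes was not counted for either number. KO HFD and WT HFD did not overlap in 60 members, against 8.78% of all genes tested. In 62 members replicates 2 and 3 lay above all WT HFD libraries while replicate 1 lay within the WT HFD range or below it, and the share with this pattern was 49.6% of members, 39.9% of the comparison set and 22.8% of all 11702 annotated genes. In 15 members (12%) replicate 1 was below every WT HFD library, and the share of all genes with this was not counted. One member showed the opposite, with 22.9 CPM in KO HFD replicate 1 and 1.64 and 1.29 CPM in replicates 2 and 3. Its level was also uneven on ND, at 4.36, 5.04 and 16.8 CPM in WT and 20.8, 1.89 and 3.49 CPM in KO, so it follows single libraries and not a group.

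The test called 6 members higher in KO on HFD, against 0.0867% of all genes tested (0.246% in either direction). In the diet by genotype interaction it called 12 members, all with a higher ratio of HFD to ND in KO than in WT. Of all genes tested, 0.766% were called in that direction, 0.441% in the opposite one and 1.21% in either direction. The 6 were among the 12. Of the 125 members, 106 had an unadjusted p under 0.05 between genotypes on HFD, as did 11% of all genes tested. The median fitted log2 fold change of KO over WT on HFD was 1.27 for the members, and 1.27 with the member at 0 set to its bound, against 0.01 for all genes tested. Leaving out KO HFD replicate 1 raised the calls to 78 on HFD and 72 in the interaction, and leaving out KO HFD replicate 3 lowered them to 3 and 2. Over all genes tested the calls without KO HFD replicate 1 were 822 on HFD and 942 in the interaction, up from 34 and 167, and without KO HFD replicate 3 they were 7 and 18.

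A smaller group of members was kept in every KO HFD library. In 18 members each of the 3 KO HFD values was at least 2 times the WT HFD mean, and in 85 members replicates 2 and 3 were but replicate 1 was not. The rule required a ratio of at least 2 of the group mean, and the share over all genes was not counted for these 2 numbers. The 18 stood at a median of 33.2%, 53.3% and 41.5% of the WT scale in KO HFD replicates 1, 2 and 3, and the other 107 members at 4.53%, 64.4% and 44.8%. The 18 were picked on their KO HFD values, so the higher position in replicate 1 follows from the choice. All 6 members called on HFD and 7 of the 12 called in the interaction were among the 18, a count that the same choice favours.

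The most abundant member, MGP_C57BL6NJ_G0021355, was one of these 18. It measured 206, 164 and 163 CPM in WT ND, 211, 197 and 213 CPM in KO ND, 35.7, 54.0 and 47.7 CPM in WT HFD, and 97.5, 139 and 114 CPM in KO HFD. The HFD groups did not overlap, and every KO HFD library lay between the WT HFD and the ND values. Its fitted log2 change on HFD was -1.67 (SE 0.16) in WT and -0.63 (SE 0.16) in KO, and its KO HFD mean stood at 53.9% of the WT scale. The counts behind these values were high, 492 to 786 per WT HFD library and 1300 to 1876 per KO HFD library.

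The member at rank 11 in abundance held its level most evenly. It measured 43.7, 42.7 and 37.2 CPM in WT ND, 37.8, 36.0 and 38.6 CPM in KO ND, 14.1, 6.93 and 12.2 CPM in WT HFD, and 32.5, 34.3 and 33.9 CPM in KO HFD. All 3 KO HFD values were far above the highest WT HFD value and just under the lowest KO ND value. Its KO ratio of HFD to ND was 0.895 and its KO HFD mean stood at 74.6% of the WT scale.

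MGP_C57BL6NJ_G0032148 had the largest fitted difference between KO and WT on HFD among members whose HFD groups did not overlap. It measured 4.16, 3.85 and 4.41 CPM in WT ND and 1.82, 4.35 and 3.29 CPM in KO ND. Each WT HFD library held 1 count, and the KO HFD libraries held 4, 16 and 11 counts, or 0.3, 1.19 and 0.748 CPM. Its log2 change on HFD was -5.42 (SE 0.59) in WT and -1.87 (SE 0.42) in KO, so it fell in KO too, and its KO HFD mean stood at 16.6% of the WT scale. The log2 difference of KO from WT on HFD was 3.17 (SE 0.69) and was not called (edgeR adjusted p = 0.0991), and it was called in 3 of 10 alternative settings, with adjusted p from 0.00561 to 0.426. The size of its genotype difference on HFD rests on these few counts.

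MGP_C57BL6NJ_G0026316 had the lowest p for a fall in KO among the members not yet named whose HFD groups did not overlap, and it fell in both genotypes. It measured 11.4, 10.6 and 11.4 CPM in WT ND, 10.6, 9.67 and 10.1 CPM in KO ND, 1.38, 0.961 and 1.90 CPM in WT HFD, and 2.62, 3.20 and 3.20 CPM in KO HFD. Replicates were close on ND and in KO HFD and ranged over 14 to 26 counts in WT HFD, and all KO HFD values lay above all WT HFD values and far below ND. The log2 change on HFD was -2.69 (SE 0.23) in WT and -1.55 (SE 0.21) in KO, and its KO HFD mean stood at 16.4% of the WT scale. Its log2 difference of KO from WT on HFD, 1.02 (SE 0.24), was not called (edgeR adjusted p = 0.128). That difference was called in 2 of 11 alternative settings. The interaction was not called either (edgeR adjusted p = 0.0893).

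MGP_C57BL6NJ_G0000007 had the largest fitted fall in WT among the members not yet named whose HFD groups did not overlap, and this fall rested on 1 library. It measured 23.2, 0.840 and 3.41 CPM in WT ND, 1.0, 1.12 and 7.18 CPM in KO ND, 0.291, 0.755 and 0.219 CPM in WT HFD, and 3.0, 4.39 and 3.47 CPM in KO HFD. Its KO HFD values were even and above all WT HFD values, while its ND values spread widely within both genotypes. The log2 difference of KO from WT on HFD was 2.99 (SE 1.37). This difference was not called (edgeR adjusted p = 0.468), nor was it called in any of 11 alternative settings. The log2 change on HFD in WT was -4.14 (SE 1.33), and -2.01 without WT ND replicate 1, when it was no longer called. It was also not called without any one of the WT HFD libraries.

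The coefficient of variation within WT ND was above 0.5 in 11 members, and the share of all genes at this value was not counted. Its median within WT ND was 0.193 for the members, against 0.133 for all 11702 annotated genes. Within KO ND the medians were 0.165 and 0.115, within WT HFD 0.324 and 0.141, and within KO HFD 0.478 and 0.181. The members were also less abundant, with a median of 3.12 CPM against 18.2 CPM. Of the 4 members with ID numbers under 1000, a range that held 19 of the 11702 annotated genes, all were highest in WT ND replicate 1 within their group. The member at rank 13, for example, measured 71.7, 12.4 and 18.3 CPM in WT ND and 51.3, 15.8 and 71.3 CPM in KO ND, but 6.10, 3.43 and 5.25 CPM in WT HFD and 26.3, 23.9 and 22.8 CPM in KO HFD. Its KO HFD values were even across the libraries, with replicate 1 the highest.

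Other abundant members followed the division between KO HFD libraries. The member at rank 2 measured 28.5, 30.8 and 29.5 CPM in WT HFD and 31.2, 73.1 and 75.1 CPM in KO HFD, from ND levels of 157 to 171 CPM in WT and 125 to 183 CPM in KO. At rank 3, the values were 17.8, 21.6 and 25.4 CPM in WT HFD and 22.9, 60.4 and 49.4 CPM in KO HFD. KO HFD replicate 1 was just above the WT HFD values in the first and within their range in the second. At rank 5, the values were 16.6, 14.0 and 15.4 CPM in WT HFD and 15.7, 41.2 and 39.6 CPM in KO HFD, the same division. The member with the highest ratio of KO HFD to WT HFD, 11.7, was of this kind as well, with 0.225, 5.13 and 3.74 CPM in KO HFD and 0.0726, 0.0686 and 0.364 CPM in WT HFD.

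**Figure D4:**
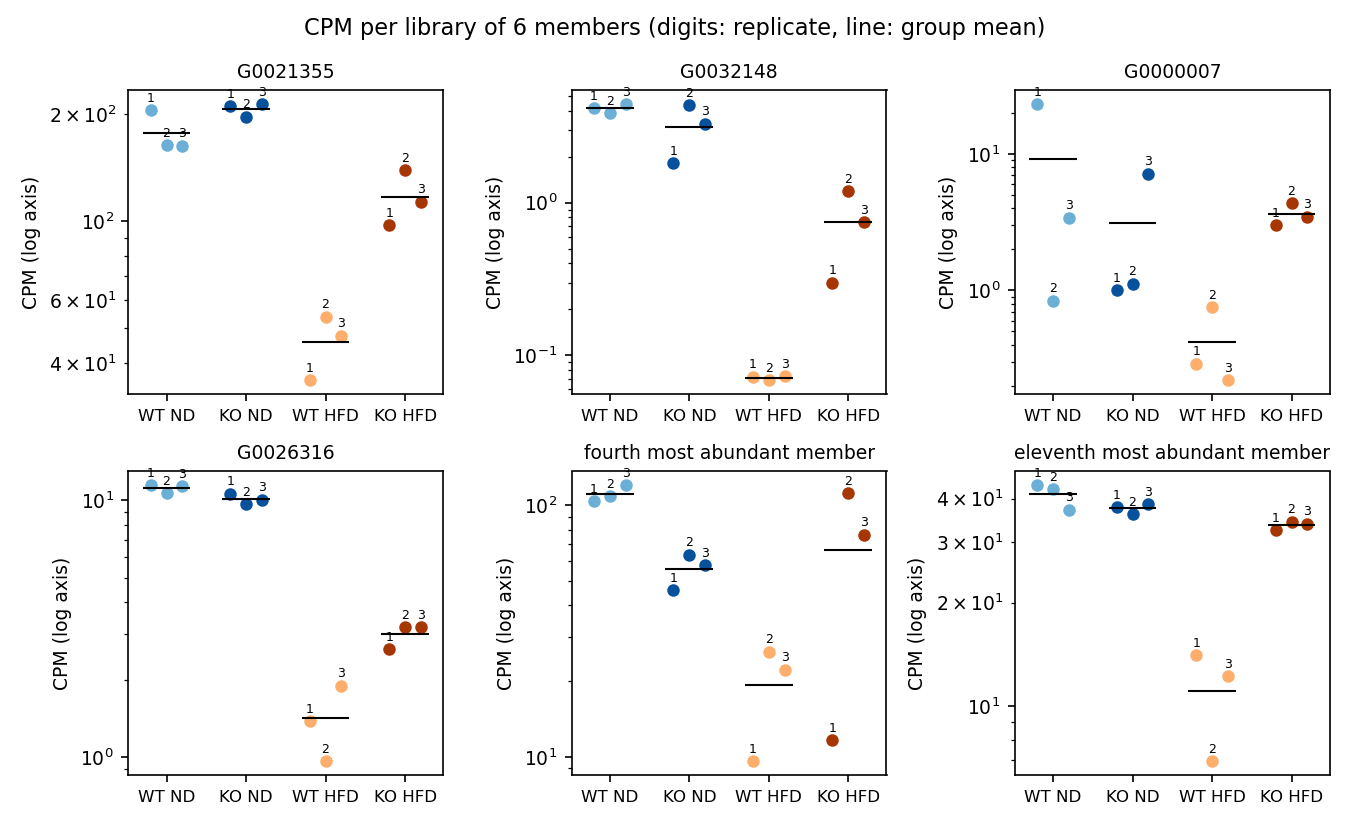
CPM in each library on a log axis for the 4 members given by ID and the members at abundance ranks 4 and 11, with the replicate number at each point and a line at the group mean. In rank 11 the 3 KO HFD points coincide near 34 CPM, and in rank 4 replicate 1 (11.6 CPM) falls within the WT HFD range while replicates 2 and 3 (111 and 76.4 CPM) reach the ND levels.

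On the normal diet, the contrast on which the rule set no bound, most members were close between genotypes and slightly lower in KO. The ratio of KO ND to WT ND had a median of 0.897, lay from 0.8 to 1.25 in 73 members, and was under 1 in 89. The shares of all genes at these ratios were not counted. The fitted log2 fold change was above 0 in 32.8% of members and 49.7% of all genes tested. The test called 1 member lower in KO (2.85% of all genes tested were) and none higher (1.96% of all genes tested; 4.81% in either direction), with 12 members (9.6%) at an unadjusted p under 0.05, against 21.3% of all genes tested. DESeq2 called 2 lower and none higher. The median fitted log2 fold change was -0.14, against 0.00 for all genes tested. The ND groups did not overlap in 24 members lower in KO, against 17.4% of all genes tested, and in 6 members higher in KO, against 14.8%. Both ND groups entered other ratios of the rule, so this is a description too.

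A subset of 19 members had a KO ND mean of at most 0.667 of the WT ND mean, and only 1 of them was called lower. The share of all genes at this ratio was not counted. The lowest ratio, 0.346, was that of MGP_C57BL6NJ_G0000007, with 23.2, 0.840 and 3.41 CPM in WT ND. For 12 of the 19 the KO ratio of HFD to ND was 0.8 or more, up to 1.40. The KO HFD means of these 12, which can combine unlike libraries, were near or above KO ND means that were themselves under WT ND. The member at rank 4 was one of them: it measured 103, 109 and 120 CPM in WT ND, 45.9, 63.6 and 57.9 CPM in KO ND, 9.59, 26.2 and 22.2 CPM in WT HFD, and 11.6, 111 and 76.4 CPM in KO HFD. Rank 7, whose ID number directly follows that of rank 4, lay just outside the subset at a ratio of 0.680. It measured 53.0, 75.6 and 73.3 CPM in WT ND, 39.7, 52.4 and 45.1 CPM in KO ND, 13.9, 28.3 and 27.3 CPM in WT HFD, and 19.5, 79.0 and 53.8 CPM in KO HFD. In both, KO HFD replicate 1 was far below the KO ND values, and replicates 2 and 3 were above them. The 1 member called on ND, at rank 63, measured 8.13, 6.30 and 7.46 CPM in WT ND and 3.51, 3.29 and 2.82 CPM in KO ND, and it was not called when any 1 of the ND libraries was left out. Besides ranks 4 and 7, another 3 pairs of members had consecutive ID numbers. Whether such genes are neighbours or near-identical copies, between which reads could be shared, is not given in the files.

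To measure the genotype ratio in libraries the choice did not use, the rule was applied again without 1 KO HFD and 1 WT HFD library, and the left-out pair was then compared, for all 9 pairs. Without KO HFD replicate 1 the rule took 266 to 275 genes, and in the left-out pairs their median KO to WT ratio was 0.827 to 1.003, beside 0.873 to 0.895 for the other WT-repressed genes. Between 9.40% and 11.2% of the chosen genes reached a ratio of 2 in the left-out pair, beside 3.68% to 7.99% of the others. Without KO HFD replicate 2 the rule took 84 to 110 genes, with a median ratio of 1.93 to 2.72 in the left-out pairs, beside 1.501 to 1.52 for the others. A ratio of 2 was reached there by 48.2% to 73.8% of the chosen genes and 25.9% to 31.1% of the others. Without KO HFD replicate 3 the rule took 137 to 165 genes, with a median ratio of 1.78 to 2.03, beside 1.203 to 1.25. The shares at a ratio of 2 were then 43.0% to 51.4%, beside 16.4% to 19.2%. At the median, genes chosen without replicate 2 or 3 were higher than WT HFD in that replicate, and by more than the other WT-repressed genes. Genes chosen without replicate 1 were at or under the WT HFD level there. Over all annotated genes in the CPM range, the median ratio in the same pairs was 0.983 to 1.01 for replicate 1. It was 1.11 to 1.14 for replicate 2 and 1.06 to 1.08 for replicate 3. Replicates 2 and 3 were both raised in the other WT-repressed genes too, so a choice made with 1 of them is not independent of the other. Each left-out pair is 1 library against 1, so no test was made.

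The same was done for ND. Genes chosen without 1 KO ND and 1 WT ND library numbered 113 to 121, and their median KO to WT ratio in the left-out pair was 0.848 to 1.01 over the 9 pairs, beside 0.962 to 1.08 for the other WT-repressed genes. In each of the 9 pairs the chosen genes had the lower median.

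**Figure D5:**
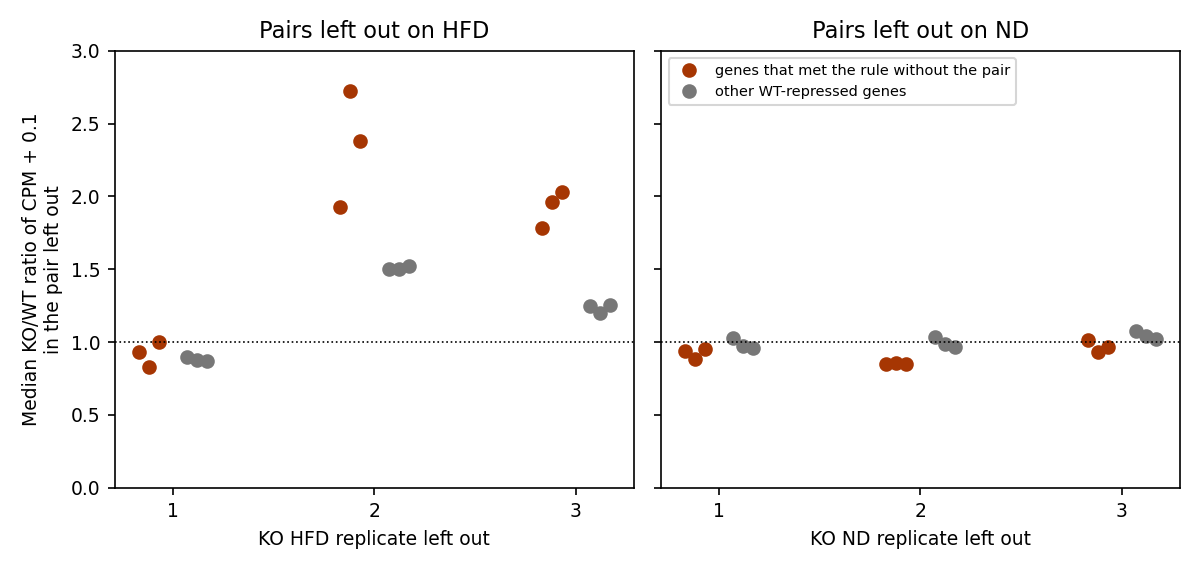
Median ratio of KO to WT (CPM + 0.1) in pairs of libraries that the rule had not used, on HFD (left) and ND (right), by the KO replicate left out; the 3 points per set are the 3 WT libraries left out with it. On HFD the chosen genes (dark) stand above the other WT-repressed genes (grey) when replicate 2 or 3 was left out and close to them when replicate 1 was.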

How the data were processed

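The authors deposited unnormalized counts for each gene in 12 mouse liver libraries, made from TRIzol RNA with the NEBNext Ultra RNA kit, per the labels. Build mm39, featureCounts 1.5.0-p3 and HISAT2 2.0.5 are named, with no settings, in the submitters' processing notes. The IDs belong to a C57BL/6NJ strain annotation, so the build is uncertain, no coordinates or sequences are given, and 0 IDs matched a symbol. Strand and multi-mapping settings are not given in the sources used here.

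Printed CPM are counts over the column total. Tests used edgeR 4.0.16 (R 4.3.3): filterByExpr with the 4 groups, TMM, robust quasi-likelihood F-test in one model of all 12 libraries, checked on simulated counts. TMM factors were 1.07 to 1.13 on ND and 0.888 to 0.988 on HFD. Members at 4 IDs follow a fixed rule: highest mean CPM, largest KO to WT difference on HFD, largest fall in WT and lowest p for a fall in KO, each with non-overlapping HFD groups. Other members are given by rank and were picked after their values were seen. The members, lists and tests were chosen with earlier results of these data known. Replicates differed by 8.05 to 165 chi-square units per degree of freedom, so none was a duplicate. Nothing in the labels ties libraries to separate animals, so p-values cover only the spread among the libraries, and that spread may be technical. A floor of 3 counts per library covers counting error only. Alternatives were DESeq2 1.42.0, other scaling, filters, libraries left out and a replicate block.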

Additional observations from a re-analysis of the deposited data

Results flagged for a closer look

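The diet response differed between genotypes, by the interaction term of edgeR, for 12 of the members. The rule selected members on the ratios that make up this term, so the number is a description. MGP_C57BL6NJ_G0021355 was among them with a log2 difference of 1.04 (KO minus WT response; SE 0.23), and was called under 6 of 16 alternative settings, with log2 differences from 0.89 to 1.17. MGP_C57BL6NJ_G0032148 was among them with a log2 difference of 3.55 (SE 0.79), and was called under 5 of 16, with log2 differences from 3.10 to 3.89.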

How the results depend on the processing

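The number of members was 83 with TMM library sizes (76 of the 125 shared), 63 with 0.5 CPM added to group means (62 shared), 142 with nothing added, 168 with group medians and 125 with the ID window kept in, an alternative chosen after seeing the data. Leaving out 1 library gave 71 (without KO HFD replicate 2) to 223 (without KO HFD replicate 1). On the column-total scale the median of all genes in KO HFD replicate 2 was 1.11 to 1.14 times WT HFD. TMM scaling, added after seeing the data for the following values, gave median positions of 9.83%, 71.9% and 52.3% in KO HFD replicates 1, 2 and 3, with replicate 1 lowest in 103 members and non-overlapping HFD groups in 61. Members called between genotypes on HFD were 11 without a low-count filter, 40 with DESeq2 and 1 in the 6 HFD libraries alone, where 96 members were tested, and 3 to 78 with 1 library left out. In the interaction they were 20 without a filter, 37 with DESeq2 and 1 (without WT HFD replicate 3) to 72 (without KO HFD replicate 1), with 2 to 7 without any other library. On ND they were 2 with DESeq2, 4 in the 6 ND libraries alone and 0 without any 1 library. HFD against ND gave 24 (without KO ND replicate 3) to 44 members in KO and 100 to 107 in WT with 1 library left out. The cause of these shifts was not tested. With 1 library left out, median log2 fold changes of the members were 1.07 to 1.53 on HFD, where the rule fixed the sign, -0.80 to -0.35 for the diet in KO and -0.20 to -0.12 on ND. MGP_C57BL6NJ_G0021355 kept its call on HFD in 10 of 11 settings. Replicate numbers were not taken to pair the libraries, since same-numbered deviations correlated at -0.0377 to 0.318 and only 9 of 18 pairs were over 0.1. In none of the pairs of groups compared were all 3 over 0.1, and in WT ND with KO HFD, which were not compared, all 3 were. The 3 highest values, 0.312 to 0.318, were all between replicates 1, and the other pairs of replicates 1 gave 0.0400 to 0.134. The bearing of these values on KO HFD replicate 1 was not tested. With the replicate block 5 members were called on HFD, 14 in the interaction, 1 on ND, 41 for the diet in KO and 115 in WT. Over all genes tested, calls between genotypes on HFD were 34 with edgeR, 71 without a filter, 253 with DESeq2, 8 in the 6 HFD libraries alone and 7 to 822 with 1 library left out. On ND they were 666 with edgeR and 1232 with DESeq2, and in the interaction 167 and 608.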
